A study of Rattus norvegicus with 12 samples.

Results

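Branched-chain amino acids and gamma-aminobutyric acid (GABA) are broken down in mitochondria, and transcripts of 5 enzymes of these routes, together with the mitochondrial carrier UCP2, were followed in rat choroid plexus between day and night. The genes were chosen by name, with earlier results of these data known. Of 7 names, 6 had an Ensembl identifier in the parts of the study's gene tables used here, out of 32883 genes listed per library. These were BCAT2 (ENSRNOG00000020956), BCKDHA (ENSRNOG00000020607), BCKDHB (ENSRNOG00000009928), DLD (ENSRNOG00000006364), ALDH5A1 (ENSRNOG00000023538) and UCP2 (ENSRNOG00000017854). DBT had none in those parts and is not analysed here. BCKDHA, BCKDHB, DLD and UCP2 were identified through a table ordered by level, of which the top 1997 rows were used. BCAT2 and ALDH5A1 were identified only through a table of genes called as differing in these very samples, so their differences are not independent of how they were found.

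The choroid plexus is the epithelium of the brain ventricles that secretes the cerebrospinal fluid. All animals were male Sprague-Dawley rats aged 9 weeks, under xylazine and ketamine anesthesia, and the plexus of the lateral and the fourth ventricle was taken as whole tissue. The light phase is represented by 6 rats at zeitgeber time (ZT) 8, in hours after lights on, and the dark phase by 6 other rats at ZT 20. Each rat gave 1 library, and each phase rests on a single time of day.

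Leucine, isoleucine and valine first lose their amino group to a transaminase, which in mitochondria is BCAT2. The keto acids that remain are committed to oxidation by the branched-chain keto acid dehydrogenase complex. Its decarboxylating E1 part consists of BCKDHA (alpha) and BCKDHB (beta), its E2 core is DBT, and its E3 part is DLD, which also serves the pyruvate and oxoglutarate dehydrogenase complexes. ALDH5A1, succinate semialdehyde dehydrogenase, carries out the last step by which GABA enters the citric acid cycle. UCP2 is a carrier of the inner mitochondrial membrane, found in many tissues and in macrophages.

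The promoter windows of BCAT2 and ALDH5A1 are shown because these were the members with more transcript at night. They come from RefSeq (build GRCr8, not the build used for the expression values) and run 5′ to 3′ on the strand of the gene, from 250 bases before to 50 bases after its start. BCAT2 is at chr1:105178889-105179188 and ALDH5A1 at chr17:40560123-40560422, both on the plus strand. Capitals mark a GC box.
BCAT2: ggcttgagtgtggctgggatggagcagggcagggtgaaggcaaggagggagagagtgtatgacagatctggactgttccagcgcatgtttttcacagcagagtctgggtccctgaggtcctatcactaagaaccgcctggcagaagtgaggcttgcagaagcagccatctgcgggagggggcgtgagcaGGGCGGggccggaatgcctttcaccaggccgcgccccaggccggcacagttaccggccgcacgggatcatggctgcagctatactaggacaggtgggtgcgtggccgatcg
ALDH5A1: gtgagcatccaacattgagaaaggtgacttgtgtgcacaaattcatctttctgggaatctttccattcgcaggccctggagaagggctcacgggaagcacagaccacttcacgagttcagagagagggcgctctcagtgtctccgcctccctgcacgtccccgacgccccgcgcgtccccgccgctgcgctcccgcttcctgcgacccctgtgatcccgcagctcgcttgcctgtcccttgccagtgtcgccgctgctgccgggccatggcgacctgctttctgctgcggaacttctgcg

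A promoter entry was matched for 5 of the 6 members, all but BCKDHA. On both strands, 8 motifs were searched. The E-box CACGTG, known from clock-controlled genes, was in 0 of the 5 windows and in 6.42% of all 33469 windows of the table. Also in 0 of the 5 were the D-box forms TTATGTAA and TTACGTAA (0.893% and 0.12% of all windows), the cAMP element TGACGTCA (1.83%) and the nuclear receptor half-site TGACCT (16.2%). The GC box GGGCGG (33.1% of all windows) was present 1 time in BCAT2 and 2 times in BCKDHB. CCAAT (37.5%) was present 2 times in BCKDHB and 3 times in DLD, and TATAAA (14.2%) 1 time in DLD. These matches describe letters in the windows only.

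Expression is given as TPM, a share of all transcripts in a library that is corrected for gene length. All 10 epithelial markers looked for were found, with TTR, the carrier of thyroid hormone, holding 25.4 to 30.4% of TPM per light-phase library and 28.7 to 31.0% per dark-phase library. The summed levels of all 7 marker lists, for epithelium, macrophages, endothelium, fibroblasts, mural cells, blood, and neurons and glia, overlapped between the phases. The epithelial sum is mostly TTR. Endothelium rests on 2 of 9 markers, fibroblasts and mural cells on 2 of 6 each, and macrophages on 3 of 14. Blood and neurons and glia rest on 1 of 6 markers each. Single markers were called by limma, as were 17.8% of all genes and 23.9% of those identified by level. Of 10 epithelial markers, 4 were higher and 2 lower at night. FLT1, of 2 paired endothelial markers, was higher without overlap (log2 ratio 0.35, limma FDR = 0.000216). Lower were TAGLN of 2 paired mural markers (-0.73, limma FDR = 0.0273) and PTPRC of 3 paired macrophage markers. FLT1 and PTPRC were identified only as called in these samples, so their calls follow from how they were found. The part of the called markers in the results was not tested. Light-phase replicate 2 stood apart, with the lowest TTR share and 5535 TPM of the blood transcript HBB against at most 2190 TPM elsewhere. Depth relative to the mean library was 0.885 to 1.36 (light) and 0.884 to 1.08 (dark). The abundance-weighted effective transcript length, obtained from the quotient of summed FPKM and summed TPM, was 1013 to 1050 bases (light) and 1041 to 1071 bases (dark), with little overlap. This quotient served as a covariate in an alternative fit. It was 0.9528 to 0.9873 by day and 0.9338 to 0.9603 at night, so it went largely with phase. The phase difference is therefore estimated less precisely in that fit. A call lost there cannot be told apart from this loss of precision.

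Dark-phase and light-phase libraries were compared with limma over 12513 genes, with the false discovery rate (FDR) adjusted over all of them. Limma called 3 of the 6 members at FDR below 0.05, where 17.8% of all genes were called. BCAT2 and ALDH5A1 had more transcript at night, as did 9.41% of all genes, and BCKDHA had less, as did 8.38%. In the same 3 genes the libraries of both phases were fully separated, which held for 8.91% of all genes (4.97% with the dark phase above, 3.94% with the light phase above). As BCAT2 and ALDH5A1 were identified only as called in these samples, neither count of 3 can be read against these shares. No share without overlap was computed for the genes identified by level. Of the 4 members identified by level, 1 was called. Limma called 23.9% of the 1983 genes tested there, 9.23% higher at night and 14.7% higher by day. BCKDHB, DLD and UCP2 were not called. In whole tissue, fewer cells of a type and less RNA per cell cannot be told apart.

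**Figure D1:**
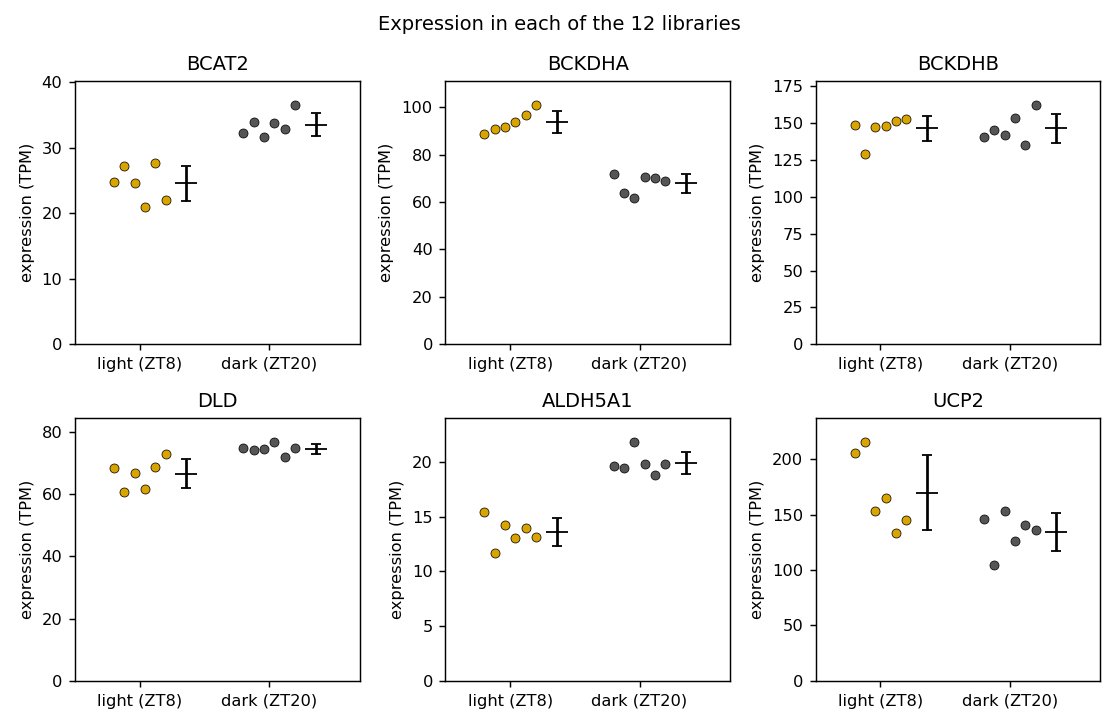
Expression in TPM (y axes, from 0) of the 6 genes in each light-phase library (yellow, ZT 8) and each dark-phase library (gray, ZT 20), with bars for mean and SD. BCAT2, BCKDHA and ALDH5A1 separate by phase, whereas BCKDHB, DLD and UCP2 overlap.

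**Figure D2:**
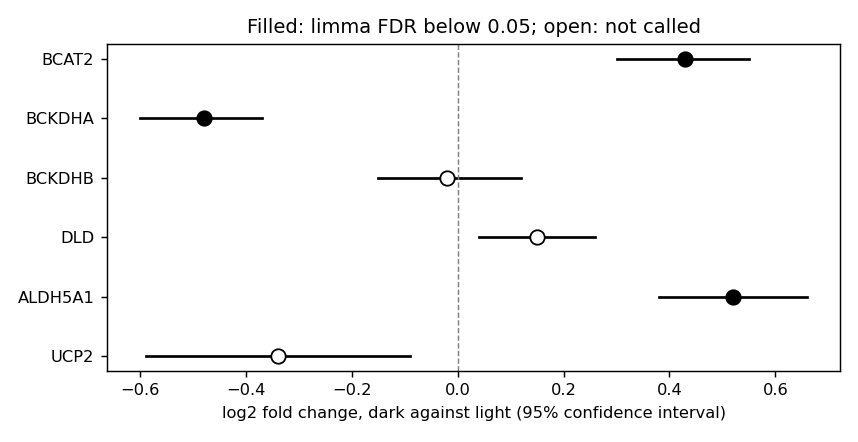
Log2 ratio of dark to light phase (x axis) with 95% confidence intervals from limma, filled where the FDR was below 0.05. BCAT2 and ALDH5A1 lie to the right and BCKDHA to the left, and the interval of BCKDHB spans 0.

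The transaminase transcript was more abundant at night. BCAT2 measured 20.96 to 27.59 TPM by day (median 24.7) and 31.58 to 36.51 TPM at night (median 33.31). Every dark-phase library exceeded every light-phase library. The mean rose by 36.5%, from 24.5 ± 2.66 to 33.5 ± 1.73 TPM (n = 6, SD). The log2 ratio was 0.43 (standard error 0.06, limma FDR = 0.000309). A two-sided exact permutation test gave p = 0.00216, the smallest that 6 against 6 can give. As BCAT2 was identified only as called in these samples, neither value is an independent test.

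The E1 alpha transcript went the other way. BCKDHA measured 88.72 to 101.03 TPM by day (median 92.85) and 61.90 to 72.04 TPM at night (median 69.66). The lowest light-phase library stayed above the highest dark-phase library. The mean was 93.8 ± 4.50 TPM by day and 67.9 ± 4.10 TPM at night (n = 6, SD), so it was 38.2% higher by day. The log2 ratio was -0.48 (standard error 0.05, limma FDR = 7.23e-05, exact permutation p = 0.00216).

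Its partner in E1 had a far smaller estimate. BCKDHB measured 129.20 to 153.06 TPM by day (median 148.63) and 135.23 to 162.40 TPM at night (median 143.66), with broad overlap. The mean was 146.4 ± 8.69 TPM by day and 146.5 ± 9.88 TPM at night (n = 6, SD). The log2 ratio of -0.02 (limma FDR = 0.874, exact permutation p = 0.762) had a 95% confidence interval from -0.15 to 0.12, or 0.900 to 1.08 as a ratio of dark to light. The sign of this value changed with the scaling, being 0.01 after rescaling without TTR and the mitochondrial genome.

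DLD, the shared E3 part, tended upwards at night without being called. It measured 60.50 to 72.87 TPM by day (median 67.5) and 71.89 to 76.76 TPM at night (median 74.64). In 5 of 6 dark-phase libraries the value was above all light-phase libraries, and the mean was 66.4 ± 4.64 TPM by day against 74.5 ± 1.57 TPM at night (n = 6, SD). The log2 ratio of 0.15 (95% confidence interval 0.04 to 0.26) had a limma FDR of 0.0581, and the exact permutation test of this single gene gave p = 0.0130. With TPM as deposited the FDR was 0.0225, and without light-phase replicate 6 it was 0.0209 (log2 ratio 0.18), so the call hung on the scaling and on 1 library. With the FPKM to TPM quotient as a covariate the log2 ratio was 0.25 (limma FDR = 0.10). Its dark-phase coefficient of variation was 2.11%, and 1.60% of 6947 genes averaging 10 TPM or more varied less, a gene set chosen after the values were seen.

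Because TPM are corrected for length, members can be set against each other within a library, free of the scaling between libraries. All 15 pairs were tested with two-sided exact permutation tests of the log2 ratio, and p was adjusted over the pairs. The BCKDHA to BCKDHB ratio was 0.642 ± 0.0363 by day (0.595 to 0.702) and 0.465 ± 0.0415 at night (0.425 to 0.521; n = 6, SD). The libraries did not overlap, and the log2 ratio differed by -0.46 (standard error 0.06, exact permutation, adjusted p = 0.00406). The alpha and beta transcripts of E1 thus changed unequally.

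BCKDHA exceeded DLD in 6 of 6 light-phase libraries and in 0 of 6 dark-phase libraries, a count made after the values were seen. The mean ratio was 1.42 ± 0.0826 by day and 0.912 ± 0.0575 at night (n = 6, SD; exact permutation, adjusted p = 0.00406). BCAT2 to BCKDHA rose from 0.262 ± 0.0336 to 0.494 ± 0.0348 (n = 6, SD), by 0.91 on the log2 scale (exact permutation, adjusted p = 0.00406). In all, 12 of 15 ratios differed at an adjusted p below 0.05, and 8 of them without overlap. The 15 pairs are built from 6 genes and so are not independent of each other. No share over other gene pairs was computed, and the ratios were not refitted with the FPKM to TPM quotient as a covariate. BCAT2 or ALDH5A1, found through their differences, are in 9 of the 15 pairs and in 8 of the 12 that passed. Of the 6 pairs among the members identified by level, 4 passed, and BCKDHA to BCKDHB and BCKDHA to DLD did not overlap. Those that did not pass were BCAT2 to ALDH5A1 (log2 ratio changed by -0.09, exact permutation, adjusted p = 0.392), BCKDHA to UCP2 (-0.14, adjusted p = 0.392) and BCKDHB to UCP2 (0.32, adjusted p = 0.112).

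**Figure D3:**
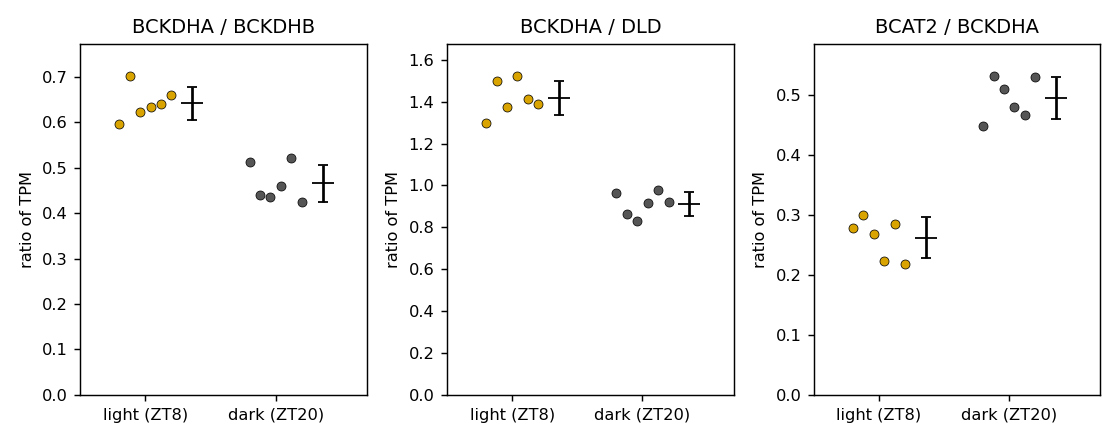
Ratio of TPM between members within each library (y axes, from 0), by day (yellow) and at night (gray), with bars for mean and SD, for 3 of the 15 pairs picked after all had been tested. BCKDHA relative to BCKDHB and DLD is lower in every dark-phase library, and BCAT2 relative to BCKDHA is higher.

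By mean level the daytime order was UCP2, BCKDHB, BCKDHA, DLD, BCAT2 and ALDH5A1. At night it was BCKDHB, UCP2, DLD, BCKDHA, BCAT2 and ALDH5A1. BCKDHB and UCP2 did not separate, BCKDHB being the higher in 2 of 6 light-phase and 3 of 6 dark-phase libraries. BCAT2 exceeded ALDH5A1 in 6 of 6 libraries of each phase.

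In GABA breakdown, ALDH5A1 had the largest relative rise of the 6 genes. It measured 11.64 to 15.40 TPM by day (median 13.54) and 18.83 to 21.85 TPM at night (median 19.74), again without overlap. The mean rose by 46.8%, from 13.6 ± 1.27 to 19.9 ± 1.02 TPM (n = 6, SD). The log2 ratio was 0.52 (standard error 0.06, limma FDR = 0.000176, exact permutation p = 0.00216). ALDH5A1, too, was identified only as called in these samples, so neither value is an independent test.

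UCP2 averaged less at night, but its libraries scattered widely and it was not called. It measured 133.12 to 215.76 TPM by day (median 159.2) and 104.19 to 153.55 TPM at night (median 138.23). The phases overlapped, with all 6 dark-phase libraries under the daytime median and 2 of them under every light-phase library. The mean was 169.7 ± 33.5 TPM by day and 134.4 ± 17.4 TPM at night (n = 6, SD). The log2 ratio was -0.34 (standard error 0.11, limma FDR = 0.0574, exact permutation p = 0.0216). Its daytime coefficient of variation of 19.8% was above that of 92.7% of the genes averaging 10 TPM or more.

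Replicates 1 and 2 gave the highest daytime UCP2, 205.68 and 215.76 TPM, while the other 4 lay at or below 164.96 TPM. Leaving out replicate 5, the lowest by day, brought the log2 ratio to -0.41 and limma then called it (FDR = 0.0287). With the FPKM to TPM quotient as a covariate it was -0.65 (limma FDR = 0.0393), a shift of more than 1.5 times. Of 14 macrophage markers only PTPRC, CD74 and LYZ2 could be paired, and none of these 3 was at 0 in any library. Their sum was 591.3 to 955.5 TPM by day and 652.4 to 867.3 TPM at night, highest in light-phase replicate 2 and 674.4 TPM in light-phase replicate 1. PTPRC (CD45) alone was called lower at night (log2 ratio -0.36, limma FDR = 0.0489). It measured 1.93 to 2.97 TPM by day and 1.27 to 2.14 TPM at night. PTPRC was identified only as called in these samples, so its call follows from how it was found. The part of macrophages in the UCP2 values was not tested.

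To place the members, 100 further genes of related pathways were listed. Of these, 38 were identified by level and 15 only as genes called in these samples. Limma called 1 of the 38 higher at night and 6 higher by day, or 18.4%, where 23.9% of their table were called. Of the 15, 7 were higher at night and 3 higher by day, which follows from how they were found. With the FPKM to TPM quotient as a covariate, 0 of the 38 were called by limma, while BCKDHA, also identified by level, was (FDR = 0.0258). Of the genes identified only as called, BCAT2 (FDR = 0.0454), ALDH5A1 (FDR = 0.00994), SUOX (FDR = 0.0297), SLC7A5 (FDR = 0.0317) and SLC7A8 (FDR = 0.0387) were called with it.

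Beside the complex itself, its kinase was lower at night. BCKDK, which phosphorylates E1 alpha and so inhibits the complex, had 64.3 ± 3.34 TPM by day and 56.3 ± 2.71 TPM at night (n = 6, SD; log2 ratio -0.21, limma FDR = 0.00405), with overlap. The call was lost with the FPKM to TPM quotient as a covariate (limma FDR = 0.178). Of 4 genes of these first steps identified by level, BCKDHA and BCKDK were called, where 23.9% of that table were, and the median log2 ratio was -0.11 against -0.04 in that table and -0.01 over all genes.

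In the distal steps, where the acyl-CoA products are oxidized, limma called 0 of 13 genes identified by level, where 23.9% of all such genes were called. Of the 13, 2 had an unadjusted p below 0.05, ALDH6A1 (limma FDR = 0.109) and HADH (limma FDR = 0.0928). The most abundant was ACAT1, a mitochondrial thiolase, with 231.1 ± 12.1 TPM by day and 233.3 ± 15.9 TPM at night (n = 6, SD; limma FDR = 0.960). Among the distal genes identified only as called, PCCA, a subunit of propionyl-CoA carboxylase, was higher at night (log2 ratio 0.21, limma FDR = 0.0162), but not called with the FPKM to TPM quotient as a covariate (limma FDR = 0.119).

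In glutamate and GABA metabolism, 2 of 5 genes identified by level were called, where 23.9% of all such genes were. The cytosolic aspartate transaminase GOT1 was higher at night (log2 ratio 0.16, limma FDR = 0.0163), and the mitochondrial GOT2 lower (-0.10, limma FDR = 0.0308), although GOT2 kept its call in only 15 of 23 alternatives. GOT1 lost its call with the FPKM to TPM quotient as a covariate (limma FDR = 0.181). Glutamine synthetase, GLUL, had 182.6 ± 16.8 TPM by day and 179.9 ± 8.70 TPM at night (n = 6, SD; limma FDR = 0.650).

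Among other amino acids and electron transfer, 1 of 5 genes identified by level was called, where 23.9% of all such genes were. The called gene was MPST, a sulfurtransferase of cysteine breakdown, lower at night (log2 ratio -0.19, limma FDR = 0.0354) and called in 14 of 23 alternatives. ETFA, which passes electrons from acyl-CoA dehydrogenases, had 215.6 ± 13.6 TPM by day and 210.5 ± 13.9 TPM at night (n = 6, SD; limma FDR = 0.532). Identified only as called, sulfite oxidase SUOX (log2 ratio 0.42, limma FDR = 0.000161) and the lysine enzyme AASS (0.23, limma FDR = 0.0429) were higher at night, and AASS was called in 12 of 23 alternatives.

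Among the complexes that share DLD, the kinase PDK3 included, limma called 0 of 4 genes identified by level, where 23.9% of all such genes were called. Of these 4, 0 had an unadjusted p below 0.05. DLAT, identified only as called in these samples, had a log2 ratio of 0.12 and was not called here (limma FDR = 0.0502). PDHB, the E1 beta part of pyruvate dehydrogenase, had 131.7 ± 8.13 TPM by day and 126.8 ± 3.58 TPM at night (n = 6, SD; limma FDR = 0.274).

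Of 8 mitochondrial carriers identified by level, UCP2 included, 2 were called, both lower at night, a share close to the 23.9% of their table. The adenine nucleotide carrier SLC25A4 had 521.5 ± 16.8 TPM by day and 476.7 ± 10.9 TPM at night (n = 6, SD; log2 ratio -0.15, limma FDR = 0.0154), without overlap. The oxoglutarate carrier SLC25A11 had a log2 ratio of -0.12 (limma FDR = 0.0188). Neither was called after rescaling without TTR and the mitochondrial genome. The phosphate carrier SLC25A3 led in level with 658.7 ± 7.71 TPM by day and 647.5 ± 23.5 TPM at night (n = 6, SD; limma FDR = 0.418). Identified only as called, SLC25A14 was higher at night (0.30, limma FDR = 0.0195) and the dicarboxylate carrier SLC25A10 lower (-0.34, limma FDR = 0.00266). Both calls were lost with the FPKM to TPM quotient as a covariate (limma FDR = 0.152 and 0.0846).

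**Figure D4:**
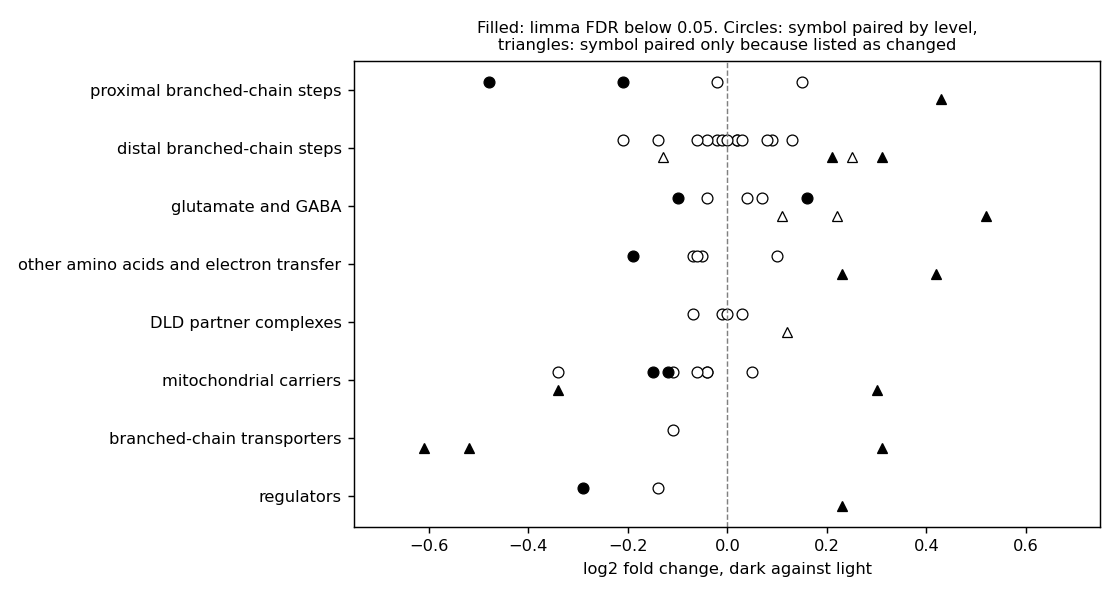
Log2 ratio of dark to light phase (x axis) of each gene by list (rows), members included, with circles for genes identified by level, triangles for genes identified only as called, and filled symbols for a limma FDR below 0.05. The circles of the distal branched-chain steps are all open.

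Finally, the genes that varied most like each member between rats were sought. Log2 values were centred within phase, and Pearson's r over the 12 libraries is given as a description, among 3053 genes with a symbol. The highest of that many values over 12 libraries can be large among unrelated genes. The size expected from such a search was not computed. Of the 3680 identifiers with a symbol at any level, 1697 had it only as called in these samples. Closest to BCKDHA were SDHB (r = 0.91), OAT (r = 0.90) and GPR146 (r = 0.90). BCKDHB was closest to ATP6V1H (r = 0.95), ATP6V1B2 (r = 0.94) and NDUFS4 (r = 0.92). Close to DLD were SUCLA2 (r = 0.94) and DYNLT3 (r = 0.94). For BCAT2 these were MRTO4 (r = 0.79), BMAL1 (r = 0.79) and PRKCB (r = 0.77). BMAL1 averaged 1.53 TPM by day and 20.7 TPM at night, so its daytime values were low, and a link to BCAT2 was not tested. For ALDH5A1 the closest genes included DKK3 (r = 0.93) and LOC103693780 (r = 0.89). UCP2 came closest to EDEM3 (r = 0.87), MARCHF6 (r = 0.84) and SLC16A12 (r = 0.84). Between members, r was highest for BCKDHB and DLD (0.76) and lowest for DLD and UCP2 (-0.59). Several of these values leaned on few libraries. Without the 2 libraries farthest from the median, r fell to 0.72 for SUCLA2, 0.65 for DYNLT3, 0.78 for DKK3 (Spearman's rho 0.60 over all), 0.58 for PRKCB and 0.66 for MARCHF6. All these values share the same libraries and scaling, light-phase replicate 2 included.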

How the data were processed

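Choroid plexus RNA of 12 rats was sequenced by the authors as paired reads, mapped with STAR 2.7.9a to Rnor_6.0 (Ensembl 104) and quantified with RSEM 1.3.3, 1 file per rat. TPM values as deposited by the authors were used for all comparisons. FPKM values, also deposited by the authors, gave relative depth and the FPKM to TPM quotient. The authors tested counts with DESeq2. Counts were not used here, so limma took its place, and of depth only a nominal output per sample is stated. The depth estimator was reworked after unstable first outputs had been seen.

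TPM were scaled by a trimmed mean of ratios (30% of ratios, 5% of levels trimmed at each end) and fitted as log2(TPM + 0.5), which understates changes at low levels, for genes averaging at least 1 TPM, with phase alone (limma 3.58.1, R 4.3.3, trended variances, Benjamini-Hochberg, FDR 0.05). Printed TPM are unscaled. Exact permutation tests of single genes used scaled TPM and all 924 assignments, and those of pairs used unscaled TPM + 0.5. On simulated data with 12658 genes run, 80% of genes changed by 0.5 (log2) and 98% changed by 1 were recovered, with 7 unchanged genes called. There, 100 genes were changed at each size, none of them at the lowest levels. Values were drawn independently for each gene, with no length difference between phases, so these rates need not hold for the real libraries.

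Members, lists and tests were chosen with earlier results of these data known. Symbols came only from the gene tables of the study, in part cut short (1997 and 1998 rows held). Named were all members, the genes called in each list (up to 4 each way), its most abundant gene not called, and 3 genes of most similar variation per member, except for a few genes that are not reported here, with counts of 5 or fewer named after seeing values. Alternatives were other scalings, added values, filters, variances, weights, a covariate, a replicate block and leaving out each library. Of all pairs of libraries, 0 were identical.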

Additional observations from a re-analysis of the deposited data

Results flagged for a closer look

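Each member was examined in each phase (12 groups of 6 libraries), and 2 values lay far from the rest of their group, where chance gives about 1 in 20 groups. BCKDHB in light-phase replicate 2 had 129.2 TPM, the next library having 147.67 TPM, a gap of 0.774 of the range. That library also had the lowest TTR share and the most HBB, and without it the log2 ratio of BCKDHB was -0.07 (limma FDR = 0.342). ALDH5A1 in dark-phase replicate 3 had 21.85 TPM, the next library having 19.84 TPM, a gap of 0.666 of the range. Without it the log2 ratio of ALDH5A1 was 0.50 (limma FDR = 0.000611).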

How the results depend on the processing

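BCAT2, BCKDHA and ALDH5A1 kept their direction and call in all 23 alternatives, with log2 ratios of 0.39 to 0.46, -0.51 to -0.36 and 0.46 to 0.60. Of these, BCAT2 and ALDH5A1 had been identified only as called in these samples. BCKDHB, never called, turned positive after rescaling without TTR and the mitochondrial genome (0.01), with the FPKM to TPM quotient as covariate (0.12) and without dark-phase replicate 5 (-0.07 to 0.01 when leaving out 1 library). DLD was called with TPM as deposited (0.17), after that rescaling (0.18) and at 10 TPM or more (0.15, fewer genes tested), was 0.25 and not called with the covariate, and lay between 0.10 and 0.18 when leaving out 1 library. UCP2 was called with the covariate (-0.65) and at 10 TPM or more (-0.34), and lay between -0.41 and -0.27 when leaving out 1 library. At 10 TPM or more, 5 members were called. Of the 38 other pathway genes identified by level, 7 were called, but 4 with TPM as deposited, 4 after that rescaling and 0 with the covariate. Over all genes 2226 were called, 52.9% of them higher at night, but 339 with the covariate, and after that rescaling 64.3% of calls were higher at night. The causes of these changes were not tested. The quotient used as covariate went largely with phase, so calls lost with it cannot be told apart from lost precision.

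Libraries of the same number came from different rats and did not vary together (correlations of deviations -0.107 to 0.047), so they share only a number. With a replicate block limma called 1595 genes and the same 3 members, and 10 ratios instead of 12 had an adjusted p below 0.05. Those lost were BCKDHB to DLD and DLD to UCP2 (exact sign-flip test, adjusted p = 0.0781 for both). The smallest p that this sign-flip test can give here is 0.0312. All 10 ratios that passed had that value (adjusted p = 0.0469), so the count is set largely by this limit. TPM carry no read counts, so no counting error is given.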

Other observations

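Plasma membrane transporters of branched-chain amino acids differed in both directions. Of 5 listed, SLC3A2, the heavy chain shared by heteromeric transporters, was the only gene identified by level and was not called, with 124.5 ± 14.3 TPM by day and 116.6 ± 7.54 TPM at night (n = 6, SD; limma FDR = 0.285). Another 3 were identified only because they had been called in these samples, and 1 was not paired. SLC7A5, the light chain LAT1, had 28.1 ± 4.91 TPM by day and 18.4 ± 2.35 TPM at night (n = 6, SD; log2 ratio -0.61, limma FDR = 0.00156). SLC7A8, the light chain LAT2, had 43.1 ± 2.09 TPM by day and 54.2 ± 3.43 TPM at night (n = 6, SD; log2 ratio 0.31, limma FDR = 0.00188). Neither gene overlapped between phases. SLC43A2, also a carrier of large neutral amino acids, was lower at night (-0.52, limma FDR = 0.00491), a call that was lost with the FPKM to TPM quotient as a covariate (limma FDR = 0.164).

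Of the regulators, the mitochondrial deacetylase SIRT3 had 71.1 ± 4.25 TPM by day and 58.8 ± 6.21 TPM at night (n = 6, SD; log2 ratio -0.29, limma FDR = 0.0147), with overlap. SIRT3 lost its call with the FPKM to TPM quotient as a covariate (limma FDR = 0.417). ATF4, a transcription factor of the amino acid response, was not called (limma FDR = 0.0988). PPARGC1A, a coactivator of mitochondrial genes identified only as called, had a log2 ratio of 0.23 (limma FDR = 0.0399) and was called in 10 of 23 alternatives.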
